A study of Mus musculus with 6 samples.

Results

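The genes described here are 42 genes for lysosomal proteases, glycosidases, sulfatases, lipid enzymes and carriers, and membrane proteins, taken by gene symbol from a table of 25239 genes, and all 42 were found. The lysosome is the acidic compartment in which endocytosed and autophagic cargo is broken down to amino acids, sugars and lipids. Its enzymes are made in the secretory pathway, most are tagged with mannose 6-phosphate and delivered by receptors, and a proton pump keeps the lumen acidic. The visceral endoderm of the rodent yolk sac takes up maternal protein by receptor-mediated endocytosis and digests it in large lysosomes, which feeds the embryo before the placenta is in place.

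The 6 RNA-seq libraries were made from whole mouse yolk sacs of embryonic day 9.5. The 3 wild-type (WT) libraries came from CD1 embryos with no treatment. The 3 DKO-labelled libraries came from embryos of mixed background of the genotype Cdx1-/- Cdx2fl/fl Actin::CreERT, in which tamoxifen, given at embryonic day 5.5, activates a Cre recombinase under an actin promoter to delete the floxed allele of the caudal homeobox gene Cdx2. Strain, genotype and tamoxifen differed together between the groups and cannot be told apart. Nothing in the labels states whether yolk sacs were pooled or litters were shared. The p-values therefore reflect only how far these samples spread, which may be technical.

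The WT libraries held 20040601 to 26855337 counts, and DKO-labelled libraries 1, 2 and 3 held 24242663, 39014098 and 56732836 counts. A floor of 3 counts equals 0.0542 to 0.149 CPM (the unit of scaled counts used throughout, with TMM-adjusted library sizes). Cdx2, the targeted gene, was not lower in the DKO-labelled libraries, at 16.6, 18.9 and 20.4 CPM in WT libraries 1, 2 and 3, against 23.0, 24.1 and 25.7 CPM in DKO-labelled libraries 1, 2 and 3 (adjusted p 0.449 by edgeR). Cdx1 had 0, 1 and 8 counts in the WT libraries against 10, 14 and 14 counts in the DKO-labelled libraries. Scaled for library size, these were 0, 0.0486 and 0.397 CPM against 0.405, 0.360 and 0.253 CPM, so its groups overlapped. The filter on low counts removed Cdx1. The counts span whole genes, so these values neither show nor deny a deleted exon, and every direction below rests on the labels. The DKO-labelled libraries were less alike than the WT libraries. Pearson correlations of log2 CPM across genes were 0.968 between DKO-labelled libraries 1 and 2, 0.925 between 1 and 3 and 0.969 between 2 and 3. Between WT libraries they were 0.989 to 0.990. DKO-labelled library 3 correlated least with the WT libraries, at 0.937 to 0.949, against 0.971 to 0.981 for libraries 1 and 2. All 12 visceral endoderm markers listed had counts in every library, and their summed level was 31680 to 37690 CPM in WT. In the DKO-labelled libraries it was 21040, 39590 and 61450 CPM in libraries 1, 2 and 3.

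In the WT yolk sac the lysosomal genes took 0.994%, 1.02% and 1.05% of all counts in libraries 1, 2 and 3. Levels of different genes were compared as CPM per kb of transcript, with the median length of the coding transcripts of each gene in GENCODE M21. On this scale the highest WT level was that of Lgmn, the asparaginyl endopeptidase legumain, at 721 ± 97.7 (SD, n = 3). Next came the carboxypeptidase gene Ctsz at 475 ± 16.1, the endopeptidase gene Ctsl at 463 ± 55.8 and Lamp1, an abundant glycoprotein of the lysosomal membrane, at 436 ± 10.1, and these 3 lay within each other's spread or close to it. The tetraspanin Cd63 stood at 339 ± 18.1, the aminopeptidase gene Ctsh at 320.04 ± 26.1 and Ctsb, which encodes an endopeptidase and dipeptidyl carboxypeptidase, at 228 ± 7.47 CPM per kb. The order depends on the transcript length assumed. Over the union of all annotated exons Ctsl stood at 305 and Cd63 at 249 CPM per kb, ranks 5 and 6, while Lgmn, Ctsz and Lamp1 then held ranks 1, 2 and 3.

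Proteases thus held 6 of the 8 highest places, the aspartic protease gene Ctsd, at 150 ± 6.04 CPM per kb, being the eighth. The glycosidases began with Hexa, the alpha subunit of beta-hexosaminidase, at 98.1 ± 4.23 CPM per kb, and the sulfatases with Galns, an N-acetylgalactosamine 6-sulfatase, at 15.3 ± 0.446. At the foot of the order stood Ctsf, at 1.45 ± 0.0796 CPM per kb, and the cathepsin genes Ctss and Ctsk, at 0.0424 ± 0.0107 and 0.0380 ± 0.00961. Ctss and Ctsk each had 2, 1 and 1 counts in WT, under the floor of 3 counts. Their order rests only on transcript length. Cathepsin S serves antigen presentation in immune cells and cathepsin K matrix breakdown in osteoclasts.

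**Figure D1:**
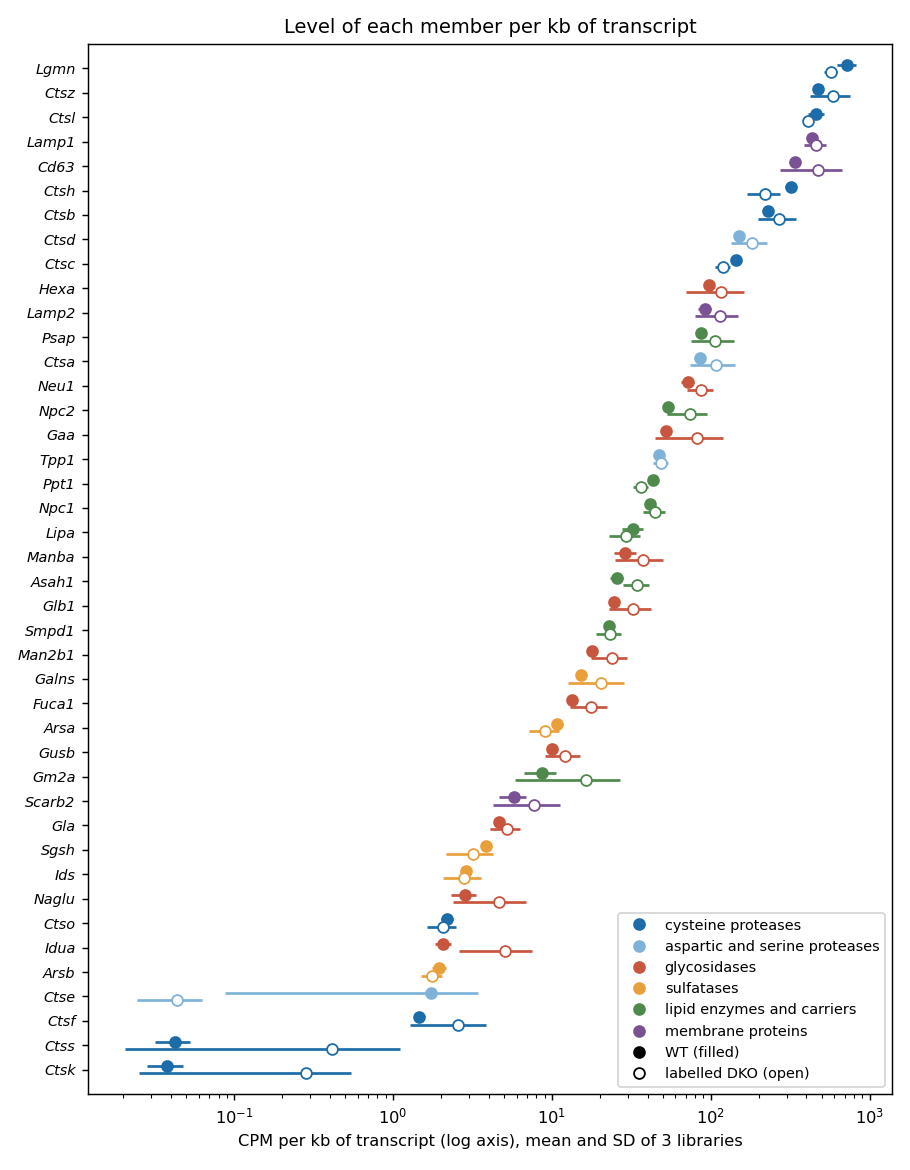
Level of each of the 42 genes in CPM per kb of transcript on a log axis, with filled points for the mean of 3 WT libraries and open points for the mean of 3 DKO-labelled libraries; bars are 1 SD, and a bar that would reach below a twentieth of its mean stops there. Lgmn leads in WT at 721 CPM per kb and Ctss and Ctsk lie lowest, under 0.05, on WT counts below the floor of 3 counts.

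Of the 42 genes, 40 passed the filter on low counts, and none differed between the groups past the threshold (edgeR's quasi-likelihood test, Benjamini-Hochberg adjustment over 14002 genes, threshold 0.05). Over all genes that test called 0.0143% higher and 0.0214% lower in the DKO-labelled libraries. At an unadjusted p under 0.05 there were 2 lysosomal genes higher (Idua and Asah1) and 4 lower (Ctsc, Ctsh, Lgmn and Ctse), beside 5.55% higher and 3.54% lower of all genes. DESeq2 called 1 higher, Idua, and 1 lower, Ctse, beside 1.16% higher and 0.767% lower of all genes. The median log2 fold change of the 40 genes was 0.27, with 28 positive, where the median of all genes tested was 0.01 and 51.9% were positive.

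The lysosomal genes were close together in the WT libraries and wide apart in the DKO-labelled libraries. Their median SD on the log2 scale was 0.0646 in WT and 0.379 among the DKO-labelled libraries. For all genes tested it was 0.114 and 0.252. The median difference from the WT mean was -0.19 in DKO-labelled library 1, 0.22 in library 2 and 0.60 in library 3, where that of all genes tested was 0.01 or less in each. DKO-labelled library 1 lay below all 3 WT libraries in 29 of the 40 genes (72.5%, against 33.7% of all genes tested). Libraries 2 and 3 each lay above all 3 WT libraries in 28 of them (70.0%, against 34.7% and 41.5% of all genes tested). Such differences in bulk tissue can come from the number of cells of a type or from RNA per cell, and these cannot be told apart. Total counts also rose from DKO-labelled library 1 to library 3, and their part in these differences was not tested.

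In 3 of the 40 genes the lowest DKO-labelled value exceeded the highest WT value, beside 7.93% of all genes tested. In 5 of the 40 all DKO-labelled values lay below all WT values, beside 7.61%. The first were Idua, Asah1 and Npc2 and the second Ctsc, Ctsh, Ctse, Arsa and Ppt1. The median fold change turned on single libraries: it was 0.43 on the log2 scale without DKO-labelled library 1 and 0.066 without library 3. Without library 1, edgeR called 4 of the genes higher, beside 3.02% of all genes, and all 4 were glycosidases, namely Gaa, Glb1, Idua and Man2b1 (Glb1 and Man2b1 are named after their values were seen). It then called none lower, beside 1.4% of all genes. Without DKO-labelled library 3 it called none of the lysosomal genes, beside 0.0142% higher and 0.0425% lower of all genes. Limma-voom with library quality weights called 13 higher and 3 lower, beside 9.96% and 9.04% of all genes. It weighted DKO-labelled library 2 at 3.7 and libraries 1 and 3 at 0.223 and 0.198.

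**Figure D2:**
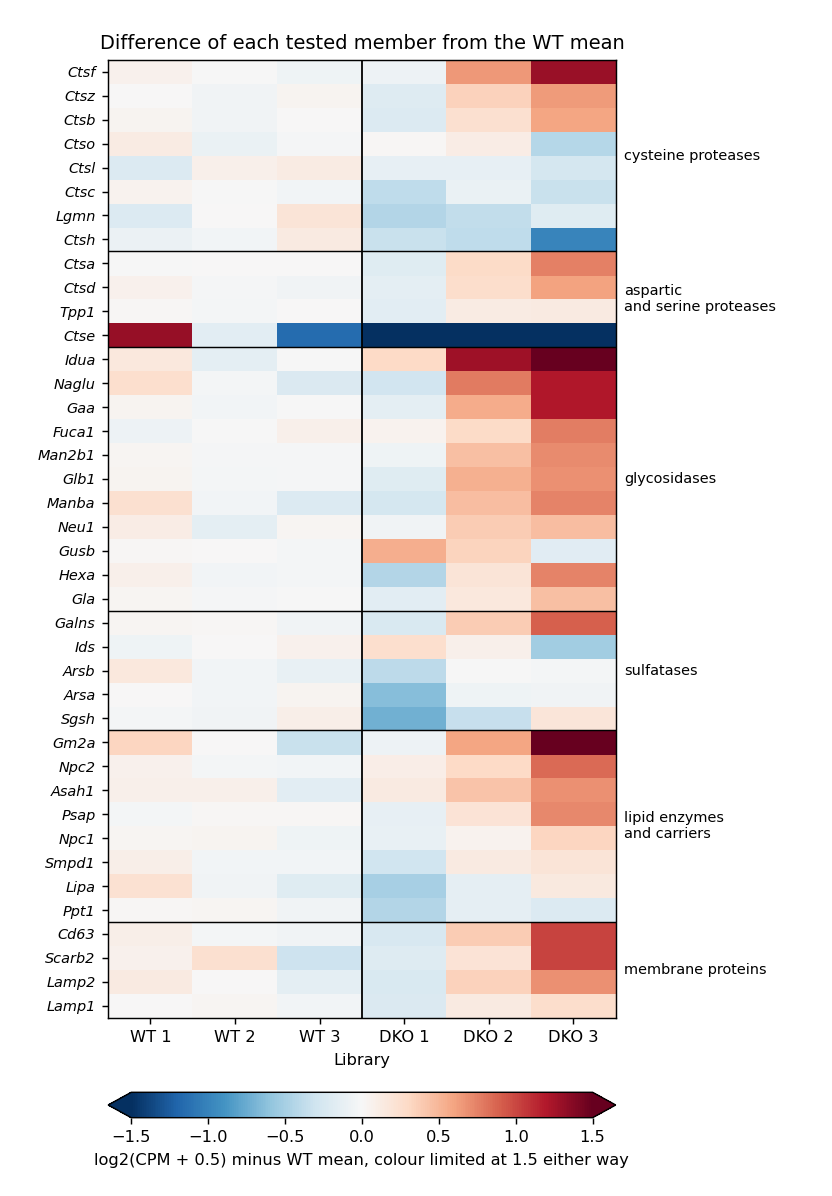
Difference of log2(CPM + 0.5) from the WT mean for the 40 tested genes (rows, by role) in the 6 libraries (columns); red is above and blue below the WT mean. Most rows are blue in DKO-labelled library 1 and red in libraries 2 and 3. Ctsh, Ctsc, Lgmn, Ctsl, Ctse, Ppt1, Arsa and Arsb lie below the WT mean in all 3, Arsa and Arsb only slightly in libraries 2 and 3.

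The promoters of many lysosomal genes carry E-boxes, the CACGTG core being the centre of the motif bound by TFEB, a transcription factor that drives lysosomal genes. RefSeq windows from 250 bases before to 50 after the gene start (GRCm38.p6) were held for 36 of the 42 genes. The letters CACGTG, which read alike on both strands, were in the windows of 12 (33.3%), against 11.5% of the tested genes with a window and 8.09% of all genes with one. The longer TCACGTGA, which contains CACGTG, was in 3 (8.33%), namely Ctsa, Ctsd and Gla, against 2.11% of tested genes. The same letters with a G before and a C after them were in none, against 0.744%. The 12 genes with CACGTG had a median log2 fold change of 0.23 and the 22 tested genes with a window but without it 0.29. Stretches are shown for the 4 of these genes where they lie outside annotated exons and outside the gene span in RefSeq, Lamp1 because it holds 4 copies within 61 bases of its start, Gaa and Glb1 because they are among the glycosidases called without DKO-labelled library 1, and Ctsf as a member of low level. The capitals mark CACGTG, and each is written 5′ to 3′ on the plus strand of GRCm38, at chr8:13159080-13159160 (Lamp1), chr11:119267803-119267848 (Gaa), chr9:114401010-114401055 (Glb1) and chr19:4855066-4855111 (Ctsf).
Lamp1: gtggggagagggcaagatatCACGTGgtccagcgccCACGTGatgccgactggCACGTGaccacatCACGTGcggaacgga
Gaa: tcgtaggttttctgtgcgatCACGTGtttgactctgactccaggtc
Glb1: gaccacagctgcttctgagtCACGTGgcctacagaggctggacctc
Ctsf: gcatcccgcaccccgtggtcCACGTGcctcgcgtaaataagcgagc

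Cysteine proteases differed among themselves in sign. Of 10 genes 8 were tested, of which 3 had a positive and 5 a negative log2 fold change (median -0.13, and -0.18 and -0.05 without library 1 and without DKO-labelled library 3). Ctsh stood at 485, 502 and 565 CPM in WT libraries 1, 2 and 3, against 410, 395 and 260 CPM in DKO-labelled libraries 1, 2 and 3. The groups did not overlap, and DKO-labelled library 3 was lowest. By edgeR the log2 fold change of Ctsh came to -0.54 (SE 0.19, adjusted p 0.488). Ctsc, a dipeptidyl peptidase that activates serine proteases of granules, stood at 426, 409 and 399 CPM in the WT libraries against 315, 383 and 325 CPM in the DKO-labelled libraries. These groups did not overlap either (log2 fold change -0.27, SE 0.10, adjusted p 0.533 by edgeR).

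Lgmn, which also cleaves cathepsin precursors, stood at 1194, 1378 and 1568 CPM in the WT libraries against 1014, 1059 and 1208 CPM in the DKO-labelled libraries. Only DKO-labelled library 3 reached into the WT range, just above WT library 1 (log2 fold change -0.33, SE 0.14, adjusted p 0.543 by edgeR). Ctsl stood at 1623, 1982 and 2043 CPM in the WT libraries against 1726, 1722 and 1555 CPM in the DKO-labelled libraries, with overlapping groups (log2 fold change -0.17, SE 0.13). Ctsb and Ctsz, named after their values were seen, took another course. Ctsb stood at 1117, 1046 and 1088 CPM in the WT libraries against 941, 1279 and 1630 CPM in the DKO-labelled libraries, and Ctsz at 687, 661 and 707 CPM and 599, 869 and 1067 CPM. In both genes DKO-labelled library 1 lay below and libraries 2 and 3 above all WT libraries. The log2 fold changes of Ctsb, Ctsz and Ctsf were 0.24 (SE 0.20), 0.30 (SE 0.21) and 0.83 (SE 0.39), and that of Ctso was -0.092 (SE 0.20). In GRCm38, Ctsh lies on chromosome 9 from 90054152 to 90076089, Lgmn on chromosome 12 from 102394084 to 102439813 and Ctsl on chromosome 13 from 64359337 to 64370890.

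The filter removed Ctsk and Ctss. Ctsk had 2, 1 and 1 counts in the WT libraries against 8, 4 and 48 counts in DKO-labelled libraries 1, 2 and 3. Ctss had 2, 1 and 1 counts in the WT libraries against 0, 1 and 91 counts, so nearly all of its counts were in DKO-labelled library 3. Markers of macrophages, which make cathepsin S, were low but present. Their summed level over 14 genes was 68.0 to 88.4 CPM in the WT libraries against 69.3, 113 and 173 CPM in DKO-labelled libraries 1, 2 and 3. In every library but DKO-labelled library 3 most of this sum was Mrc1, the mannose receptor. It stood at 59.1 to 74.9 CPM in the WT libraries against 61.9, 91.3 and 65.8 CPM. The other 13 summed to 8.88 to 13.4 CPM in the WT libraries against 7.42, 21.6 and 107 CPM. Of the 14 markers, 0 to 5 had no count in a WT library, and 5, 0 and 0 had none in DKO-labelled libraries 1, 2 and 3. The complement gene C1qb stood at 0 to 0.111 CPM in the WT libraries against 0.0811, 0.334 and 6.62 CPM, and Csf1r, the receptor for macrophage growth factor, at 2.28 to 4.90 CPM in the WT libraries against 2.51, 10.6 and 67.0 CPM. The part of these cells in the level of Ctss or of any other lysosomal gene was not tested.

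Among the aspartic and serine proteases Ctse differed from the rest. Ctse encodes cathepsin E, an endosomal aspartic protease found in blood and gut cells, and lies on chromosome 1 from 131638306 to 131675505. It had 194, 47 and 18 counts in WT libraries 1, 2 and 3, against 2, 2 and 7 counts in DKO-labelled libraries 1, 2 and 3, that is, 7.20, 2.28 and 0.893 CPM against 0.0811, 0.0514 and 0.127 CPM. The groups did not overlap, and the WT libraries differed among themselves by more than the DKO-labelled libraries did in CPM. In DKO-labelled libraries 1 and 2 the counts lay under the floor of 3 counts, so the size of the fold change is uncertain. Ctse passed the filter through its WT counts, and a filter of at least 1 CPM in at least 3 libraries removed it. By edgeR the log2 fold change came to -5.21 (SE 0.93), and its adjusted p was 0.199, against 1.64e-06 by DESeq2 and 0.0228 by limma-voom. It ran from -5.68 to -4.09 over the fits that omit a library, and edgeR called it in none of these fits. Markers of primitive erythroid cells summed to 13650, 8782 and 11970 CPM in the WT libraries against 8030, 10340 and 2780 CPM in DKO-labelled libraries 1, 2 and 3, with none of the 10 at 0 in any library, and their part in Ctse was not tested.

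The other 3 genes of this class had positive log2 fold changes. The class median was 0.16, and 0.28 without DKO-labelled library 1 and 0.027 without library 3. Ctsd, the main aspartic protease of lysosomes, stood at 317, 300.2 and 293 CPM in the WT libraries against 275, 364 and 461 CPM in the DKO-labelled libraries (log2 fold change 0.27, SE 0.19). Ctsa, a carboxypeptidase that also protects neuraminidase and beta-galactosidase, stood at 264, 265 and 267 CPM in WT against 235, 324 and 447 CPM in the DKO-labelled libraries (0.34, SE 0.22). In both genes DKO-labelled library 1 lay below and libraries 2 and 3 above all WT libraries. Adjusted p was 0.674 and 0.666 by edgeR. Tpp1, a tripeptidyl peptidase, had a log2 fold change of 0.037 (SE 0.10).

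All 11 glycosidases had a positive log2 fold change, with a median of 0.40 and a range of 0.18 to 1.30. With all libraries, however, edgeR called none, and 1 was higher at an unadjusted p under 0.05, beside 5.55% of all genes. DESeq2 called 1 higher, beside 1.16% of all genes. Limma-voom, which gave DKO-labelled libraries 1 and 3 weights of only 0.223 and 0.198, called 7 higher, beside 9.96% of all genes. The class median difference from the WT mean was -0.15, 0.45 and 0.75 in DKO-labelled libraries 1, 2 and 3. Without library 3 the median log2 fold change was 0.21, and without library 1 it was 0.58. Idua, the alpha-L-iduronidase that degrades heparan and dermatan sulfate, stood at 7.83, 6.22 and 6.90 CPM in the WT libraries against 8.63, 17.5 and 25.3 CPM in the DKO-labelled libraries, from 128 to 1399 counts. The groups did not overlap, DKO-labelled library 1 standing only just above WT. By edgeR the log2 fold change of Idua came to 1.30 (SE 0.38), and its adjusted p was 0.413, against 0.0468 by DESeq2 and 0.00752 by limma-voom. Without DKO-labelled library 1 it passed the threshold in edgeR too, at 1.61 (adjusted p 0.0302), and without library 3 it stood at 0.90 (adjusted p 0.429).

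The value of Idua is uncertain where the counting did not use strand, which is not given in the sources used here. Idua lies on the plus strand of chromosome 5 from 108660331 to 108684557, and its exons overlap those of Slc26a1, an anion transporter gene on the minus strand, by a stretch of up to 141 bases. Slc26a1 stood at 4.57, 3.11 and 3.62 CPM in the WT libraries against 1.74, 10.8 and 40.1 CPM in the DKO-labelled libraries (adjusted p 0.569 by edgeR). In DKO-labelled library 1 Slc26a1 was below and Idua above all WT libraries. Its part in the value of Idua was not tested. Exons of 13 of the 42 genes overlap those of another gene, among them Ctsb, Ctsl, Ctsa, Arsa and Lamp1 with a gene on the opposite strand, which carry the same uncertainty. Ctsd and Glb1 overlap a gene on their own strand, where the counting of shared reads is not given in the sources used here.

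Gaa, the acid alpha-glucosidase that degrades glycogen, stood at 181, 172 and 176 CPM in the WT libraries against 159, 260 and 406 CPM in the DKO-labelled libraries (log2 fold change 0.64, SE 0.31, adjusted p 0.598 by edgeR). Without DKO-labelled library 1 it passed the threshold at 0.91 (adjusted p 0.0490), and without library 3 it stood at 0.25. Hexa stood at 206, 190.0 and 192 CPM in the WT libraries against 144, 223 and 329 CPM in the DKO-labelled libraries (0.25, SE 0.28), and its sign turned without library 3, at -0.093. Fuca1, the alpha-fucosidase, stood at 32.1, 33.6 and 35.6 CPM in the WT libraries against 35.1, 41.4 and 57.8 CPM in the DKO-labelled libraries (0.41, SE 0.19, adjusted p 0.587). Its groups overlapped by DKO-labelled library 1 alone.

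The lysosomal beta-galactosidase gene Glb1 stood at 61.1, 58.2 and 58.4 CPM in the WT libraries against 52.2, 86.2 and 95.7 CPM in the DKO-labelled libraries. Man2b1, the alpha-mannosidase, stood at 70.3, 67.9 and 68.2 CPM in the WT libraries against 65.9, 94.1 and 113 CPM. In both genes DKO-labelled library 1 lay below and libraries 2 and 3 above all WT libraries. Their log2 fold changes were 0.40 (SE 0.22) and 0.40 (SE 0.19), and 0.62 (adjusted p 0.0313 by edgeR) and 0.58 (adjusted p 0.0406) without DKO-labelled library 1. Without library 3 they were 0.22 (adjusted p 0.909 by edgeR) and 0.21 (adjusted p 0.848). Naglu, an enzyme of heparan sulfate breakdown, Manba, the beta-mannosidase, Neu1, the sialidase, and Gla, the alpha-galactosidase, had log2 fold changes of 0.72 (SE 0.39), 0.37 (SE 0.26), 0.28 (SE 0.16) and 0.18 (SE 0.18). In these 4 genes too DKO-labelled libraries 2 and 3 lay above all WT libraries. Gusb, the beta-glucuronidase, was named after its values were seen because its libraries stood in another order. It stood at 20.6, 20.4 and 19.95 CPM in the WT libraries against 30.0, 25.8 and 18.1 CPM in DKO-labelled libraries 1, 2 and 3, and library 1 was highest.

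Sulfatases, which remove sulfate from glycosaminoglycans and sulfatide, showed 1 positive and 4 negative log2 fold changes (median -0.14, and -0.062 without DKO-labelled library 1 and -0.21 without library 3). Their median difference from the WT mean was -0.39 in DKO-labelled library 1, -0.01 in library 2 and -0.03 in library 3. Arsa, which cleaves sulfatide, stood at 37.5, 36.3 and 38.4 CPM in the WT libraries against 23.9, 35.8 and 35.9 CPM in the DKO-labelled libraries, with groups that just failed to overlap (log2 fold change -0.23, SE 0.17, adjusted p 0.688 by edgeR). Galns stood at 36.3, 36.2 and 34.4 CPM in the WT libraries against 30.4, 46.6 and 66.7 CPM in the DKO-labelled libraries (0.43, SE 0.27, adjusted p 0.650). The log2 fold changes of Sgsh, Arsb and Ids, which encode a heparan N-sulfatase, an N-acetylgalactosamine 4-sulfatase and the iduronate 2-sulfatase, were -0.25, -0.14 and -0.03.

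Of 8 lipid enzymes and carriers, 6 had a positive log2 fold change (median 0.21, and 0.34 without DKO-labelled library 1 and 0.0068 without library 3). Asah1, the acid ceramidase, stood at 74.5, 74.7 and 63.5 CPM in the WT libraries against 77.6, 95.6 and 114 CPM in the DKO-labelled libraries, with no overlap (0.43, SE 0.16, adjusted p 0.507 by edgeR). Npc2, a soluble carrier that hands cholesterol to the membrane protein Npc1, stood at 186, 174 and 172 CPM in the WT libraries against 190.5, 219 and 319 CPM in the DKO-labelled libraries, again with no overlap (0.45, SE 0.19, adjusted p 0.560). Npc1 itself stood at 222, 223 and 208 CPM in the WT libraries against 201, 226 and 273 CPM in the DKO-labelled libraries (0.10, SE 0.13). Its sign turned without DKO-labelled library 3, at -0.034. Psap, the precursor of the saposins that present sphingolipids to their hydrolases, stood at 224, 231 and 232 CPM in the WT libraries against 210.4, 264 and 378 CPM in the DKO-labelled libraries (0.31, SE 0.21). Gm2a, the GM2 activator, named after its values were seen, stood at 43.8, 35.3 and 27.7 CPM in the WT libraries against 33.1, 53.2 and 115 CPM, and DKO-labelled library 3 stood apart from the other 5 libraries. Ppt1, the palmitoyl-protein thioesterase, and Lipa, the acid lipase, had negative values of -0.26 (SE 0.11) and -0.15 (SE 0.19). Smpd1, the acid sphingomyelinase, stood at 0.025 (SE 0.15).

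All 4 membrane proteins had a positive log2 fold change (median 0.37, and 0.59 without DKO-labelled library 1 and 0.04 without library 3). Lamp1 stood at 976, 992 and 948 CPM in the WT libraries against 839, 1064 and 1168 CPM in the DKO-labelled libraries (0.07, SE 0.14, adjusted p 0.859 by edgeR). Omitting DKO-labelled library 3 moved it to -0.035. Its paralog Lamp2, which also serves chaperone-mediated autophagy, stood at 219, 201 and 181 CPM in the WT libraries against 171, 254 and 323 CPM in the DKO-labelled libraries (0.32, SE 0.23). Cd63 stood at 383, 353 and 347 CPM in the WT libraries against 305, 470 and 728 CPM in the DKO-labelled libraries (0.47, SE 0.29, adjusted p 0.649). Scarb2, which carries glucocerebrosidase to the lysosome, had a log2 fold change of 0.43 (SE 0.33). In Lamp1, Lamp2 and Cd63 DKO-labelled library 1 was the lowest and library 3 the highest of the 6 libraries.

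**Figure D3:**
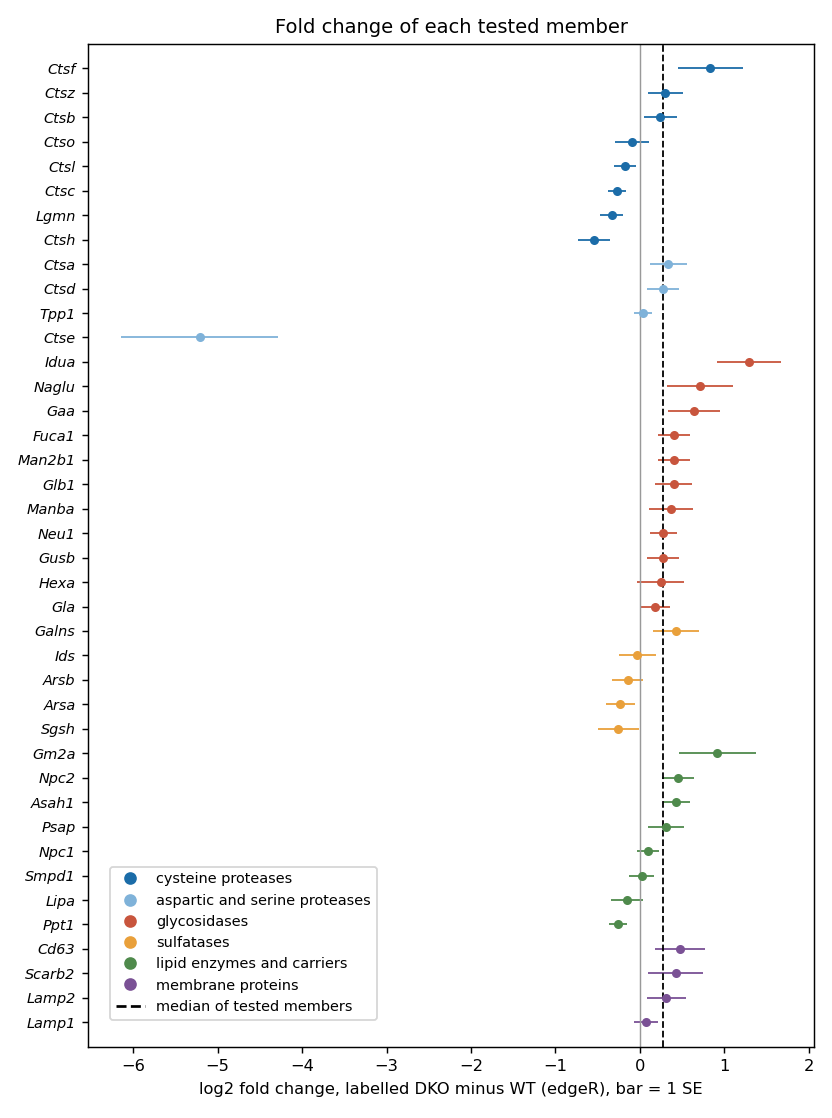
Log2 fold change of the 40 tested genes, DKO-labelled libraries minus WT by edgeR, with bars of 1 SE and the genes grouped by role; the dashed line is their median, 0.27. All 11 glycosidases and all 4 membrane proteins lie right of 0, Ctse lies far left at -5.21, and no gene passed the threshold.

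The machinery around the enzymes was read from lists that hold none of the 42 genes, and edgeR called no member of them. The 16 subunits and accessory proteins of the proton pump had a median log2 fold change of 0.06, with 11 positive. The median was 0.18 without DKO-labelled library 1 and turned to -0.030 without library 3. At an unadjusted p under 0.05 there was 1 lower, beside 3.54% of all genes. Limma-voom called 2 higher and 1 lower, beside 9.96% and 9.04% of all genes, while DESeq2 called none. Atp6v1c1, a subunit of the cytosolic sector, stood at 122, 125 and 124 CPM in the WT libraries against 104, 106 and 104 CPM in the DKO-labelled libraries, close together within each group (-0.25, SE 0.07, adjusted p 0.429 by edgeR). Atp6v1e1, of the same sector, stood at 176, 179 and 178 CPM in the WT libraries against 183, 212 and 233 CPM in the DKO-labelled libraries (0.24, SE 0.11, adjusted p 0.571). The groups did not overlap in either gene.

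The 15 genes of mannose 6-phosphate tagging and sorting had a median of -0.09 (-0.12 without DKO-labelled library 1 and -0.038 without library 3) with 6 positive. None had an unadjusted p under 0.05, DESeq2 called none, and limma-voom called 1 higher, beside 9.96% of all genes. Igf2r, the large mannose 6-phosphate receptor, stood at 750, 802 and 644 CPM in the WT libraries against 636, 638 and 550 CPM in the DKO-labelled libraries, with no overlap (-0.27, SE 0.12, adjusted p 0.572 by edgeR). Nagpa, which uncovers the mannose 6-phosphate tag, stood at -0.39 (SE 0.20). The 15 genes of TFEB and nutrient sensing had a median of 0.04 (0.086 without DKO-labelled library 1 and 0.040 without library 3) with 9 positive. At an unadjusted p under 0.05 there were 1 higher and 1 lower, beside 5.55% and 3.54% of all genes. DESeq2 called none, and limma-voom called 2 higher, beside 9.96% of all genes. Tfeb stood at 41.4, 42.5 and 44.0 CPM in the WT libraries against 46.9, 53.8 and 61.5 CPM in the DKO-labelled libraries, with no overlap (0.34, SE 0.12, adjusted p 0.494). Mtor, the kinase that holds TFEB in the cytoplasm when nutrients are plentiful, stood at -0.28 (SE 0.11, adjusted p 0.543).

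The 15 channels and transporters of the lysosomal membrane had a median of -0.01 with 7 positive. The median turned to 0.071 without DKO-labelled library 1 and was -0.013 without library 3. At an unadjusted p under 0.05 there was 1 lower, beside 3.54% of all genes. DESeq2 called none, and limma-voom called 1 higher and 1 lower, beside 9.96% and 9.04% of all genes. Slc38a9, the arginine sensor of the lysosome, stood at 40.4, 41.0 and 38.5 CPM in the WT libraries against 30.4, 34.8 and 33.5 CPM in the DKO-labelled libraries, with no overlap (-0.28, SE 0.10, adjusted p 0.493 by edgeR), and the potassium and proton channel gene Tmem175 stood at 0.52 (SE 0.31). Of 5 cathepsin inhibitors 2 were tested, the secreted cystatin gene Cst3 at 0.19 (SE 0.11) and the cytosolic Cstb at 0.44 (SE 0.31). None had an unadjusted p under 0.05, DESeq2 called none, and limma-voom called Cst3 higher, beside 9.96% of all genes.

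Sums of cell type markers also differed between the libraries. Among the DKO-labelled libraries the visceral endoderm sum was lowest in library 1 and highest in library 3. The mesoderm and mesothelium sum ran in the same order. So did the share of counts taken by the 42 genes, at 0.889%, 1.07% and 1.22% in DKO-labelled libraries 1, 2 and 3. In WT libraries 1, 2 and 3 this share rose, at 0.994%, 1.02% and 1.05%. The visceral endoderm sum fell over the same WT libraries, at 37690, 34740 and 31680 CPM. Of the 12 visceral endoderm markers, 0, 8 and 9 lay above the WT mean in DKO-labelled libraries 1, 2 and 3, and none was at 0 in any library. The markers were not uniform, since Afp, the fetal carrier alpha-fetoprotein, stood at 2222, 11540 and 31200 CPM, whereas Lrp2, the uptake receptor megalin, stood at 941, 953 and 1013 CPM in these libraries and at 1142, 1352 and 1022 CPM in WT. Without Afp the other 11 visceral endoderm markers summed to 23820 to 27960 CPM in the WT libraries against 18820, 28050 and 30250 CPM. Mesoderm and mesothelium markers summed to 2489 to 4399 CPM in the WT libraries against 1827, 5771 and 6482 CPM in the DKO-labelled libraries, and 0 of the 11 were at 0. Trophoblast markers summed to 16.6 to 46.7 CPM in the WT libraries against 85.1, 45.4 and 379 CPM in the DKO-labelled libraries, with 1 to 3 of the 10 at 0 in each library. Without Prl2c2, a placental prolactin family gene, they summed to 15.1 to 38.0 CPM in the WT libraries against 71.4, 44.8 and 144 CPM. Endothelial markers summed to 430 to 526 CPM in the WT libraries against 560, 551 and 368 CPM. The part of these cell types in the lysosomal values was not tested.

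**Figure D4:**
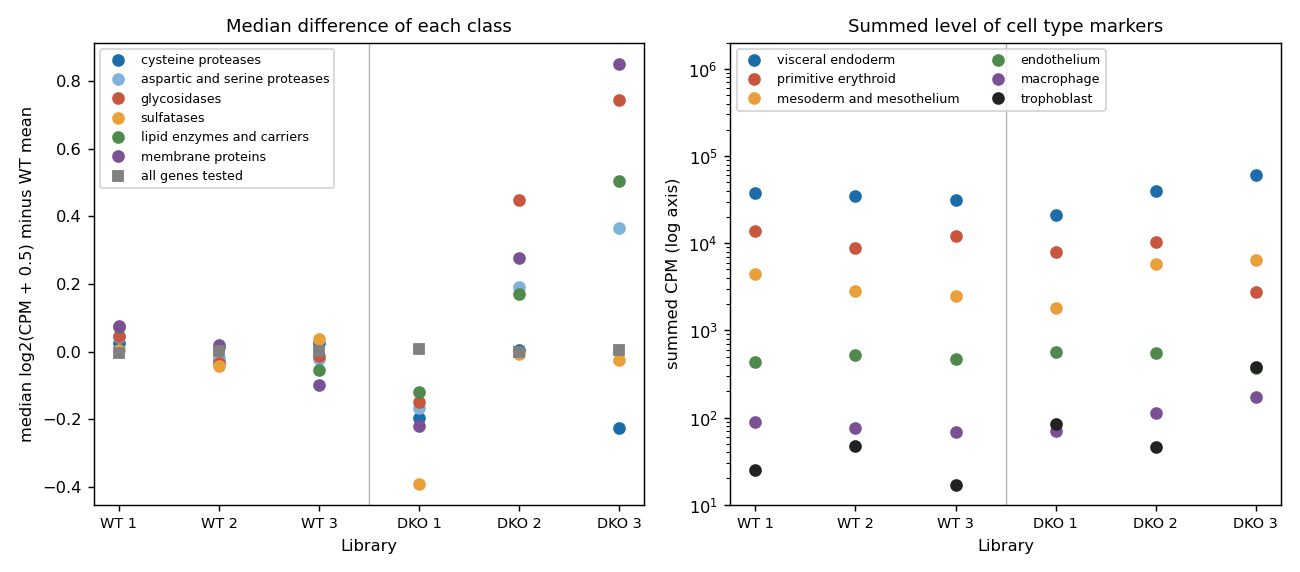
Left, median difference of log2(CPM + 0.5) from the WT mean for the tested genes of each class and for all genes tested, by library; right, summed CPM of each list of cell type markers on a log axis, by library. All classes lie below 0 in DKO-labelled library 1, 4 classes lie above 0 in libraries 2 and 3, and the visceral endoderm sum runs from 21040 to 61450 CPM over the DKO-labelled libraries.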

How the data were processed

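The deposited values are raw counts per gene, taken unchanged. The submitters' processing notes name the mm10 build, SAMtools and DESeq2. Per the file headers the counted BAM files were subsets, without a statement of what was subset. The aligner, counter, annotation and strandedness used upstream are not given in these sources. There were 0 columns without a sample and 0 rows without a gene name.

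Differential expression was tested in R 4.3.3 by edgeR 4.0.16 (TMM scaling, filterByExpr, robust quasi-likelihood fit, a single group term) on 14002 retained genes, with Benjamini-Hochberg adjustment. SE was derived as |log2 fold change| / √F. Differences from the WT mean use log2(CPM + 0.5). The fit was run on simulated counts whose spread in both groups was taken from the WT libraries alone. That simulation cannot show how the fit behaves with the wider spread of the DKO-labelled libraries. Alternatives were DESeq2 1.42.0, limma-voom 3.58.1 with quality weights, other scaling, filters and shrinkage, a replicate block and each library left out. Coordinates and lengths are from GENCODE M21 (GRCm38), and promoter sequences from RefSeq. A planned search of protein sequences was not run, because no protein table was used here.

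The members and lists were chosen with earlier results of these data known. Values in every library are given for members called by edgeR or DESeq2, for the 2 with the highest mean CPM and the 2 with the smallest p in each role class, and for those the filter removed. Of each other list the 2 with the smallest p are named, except that 1 of them is not reported here.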

Additional observations from a re-analysis of the deposited data

How the results depend on the processing

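Over all genes edgeR called 2 higher and 3 lower. DESeq2 called 178 and 118, limma-voom with quality weights 1395 and 1266, and edgeR with only genes without counts removed 3 and 5. With each library left out in turn the counts ran from 0 to 433 higher and from 0 to 201 lower, the highest without DKO-labelled library 1. Of the lysosomal genes, 0 were called in either direction by edgeR, whereas DESeq2 called 1 higher and 1 lower, limma-voom 13 and 3, and the fits with a library left out 0 to 4 higher and 0 lower. Their median log2 fold change stayed positive in all 14 alternatives, from 0.066 to 0.43. Deviations from the group means correlated at -0.371, -0.283 and -0.189 between same-numbered libraries, and at -0.0656 to 0.259 between differently numbered ones. These deviations sum to 0 within each group, so the correlations depend on each other. They cannot settle whether the replicate numbers pair the samples. With a replicate block 1 gene was higher and 0 lower, and 0 lysosomal genes were called. Small values turned sign: with limma-voom Ctso stood at 0.081 and Ids at 0.060. When each library was left out, ranges crossed 0 for Ctso (-0.22 to 0.062), Ids (-0.20 to 0.17), Tpp1 (-0.016 to 0.12), Hexa (-0.093 to 0.49), Smpd1 (-0.070 to 0.16), Npc1 (-0.034 to 0.19) and Lamp1 (-0.035 to 0.20). The cause was not tested. The number of libraries, 3 a group, limits the precision of every value.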

Other observations

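Genes that bring cargo to the lysosome were described from a list of their own. Of 13 uptake receptors and adaptors 8 had a positive log2 fold change (median 0.07). edgeR called none, and 2 were higher and 1 lower at an unadjusted p under 0.05, beside 5.55% and 3.54% of all genes. DESeq2 called 1 higher, beside 1.16% of all genes. Limma-voom called 2 higher and 2 lower, beside 9.96% and 9.04% of all genes. The median was 0.16 without DKO-labelled library 1 and 0.024 without library 3. Vps39, a subunit of the complex that fuses late endosomes with lysosomes, stood at 30.2, 29.0 and 27.6 CPM in the WT libraries against 37.9, 34.7 and 39.0 CPM in the DKO-labelled libraries (0.36, SE 0.10, adjusted p 0.372 by edgeR). Dab2, an adaptor of megalin and cubilin named after its values were seen, stood at 1851, 2015 and 1928 CPM in the WT libraries against 1663, 1433 and 951 CPM in the DKO-labelled libraries (-0.52, SE 0.21, adjusted p 0.539 by edgeR). The groups did not overlap in either gene.

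Of 14 autophagy genes 10 had a positive log2 fold change (median 0.16), and edgeR and DESeq2 called none. At an unadjusted p under 0.05 there was 1 higher, beside 5.55% of all genes, and limma-voom called 5 higher, beside 9.96% of all genes. The median was 0.27 without DKO-labelled library 1 and 0.035 without library 3. Wipi1, a phosphoinositide-binding protein of the forming autophagosome, stood at 11.6, 11.8 and 11.4 CPM in the WT libraries against 12.8, 18.1 and 22.6 CPM in the DKO-labelled libraries (0.62, SE 0.22, adjusted p 0.491 by edgeR). Without DKO-labelled library 1 it passed the threshold at 0.81 (adjusted p 0.0423), and over the fits that omit a library its lowest value was 0.41. Map1lc3a, a membrane mark of autophagosomes, stood at 0.71 (SE 0.35). The 9 cathepsin genes of the rodent placenta, relatives of Ctsl, were all removed by the filter, with a summed level of 0.0496 to 0.340 CPM in the WT libraries against 0.203, 0.0257 and 0.253 CPM in the DKO-labelled libraries.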
